A study of Rattus norvegicus with 112 samples.

Results

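The genes described here encode protein kinases, protein phosphatases, phosphodiesterases and G protein subunits, measured in primary rat cortical neurons. They are the 38 genes, of 720 named on the array, whose symbols begin with Camk, Prk, Mapk, Map2k, Grk, Pak, Ppp, Pde, Ptpr, Gna, Gnb, Gng or Adcy, or are Pnck. The 38 genes had 73 of the 1263 probe sets used, and each gene was represented by its probe set with the highest mean over the series. They comprised 8 calcium/calmodulin-dependent kinase genes (Camk1, Camk2a, Camk2b, Camk2d, Camk2g, Camk4, Camkk1 and Pnck), 5 genes of protein kinases A and C (Prkar2a, Prkar2b, Prkca, Prkcb and Prkcz) and 7 of the MAP kinase cascade (Map2k1, Map2k2, Mapk12, Mapk14, Mapk6, Mapk8ip2 and Mapk9). The remainder were 4 receptor or p21-activated kinases (Grk1, Grk2, Grk3 and Pak1), 4 serine/threonine phosphatase subunits (Ppp1r3b, Ppp1r9a, Ppp3ca and Ppp3cb), 2 receptor tyrosine phosphatases (Ptprh and Ptprv), the 4 genes of the PDE4 phosphodiesterases (Pde4a to Pde4d) and 4 G protein subunits (Gnao1, Gnas, Gnb1 and Gnb2). The adenylyl cyclase and G protein gamma prefixes matched no gene here.

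Calcium that enters through NMDA receptors binds calmodulin, which switches on the calmodulin-dependent kinases and the phosphatase calcineurin. Receptors coupled to G proteins raise or lower cyclic AMP, which frees protein kinase A from its regulatory subunits and is broken down by the PDE4 enzymes, while the MAP kinase cascade relays growth and stress signals. These enzymes are regulated largely at the protein level by second messengers and phosphorylation, whereas the arrays measured mRNA.

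The series held 112 Affymetrix arrays from 10 hybridization runs, and every comparison was made within a run. In the continuous experiment neurons received 1 mM NMDA, an agonist of glutamate-gated calcium-permeable receptors, for 10, 30, 60, 180 or 360 min until harvest, against untreated controls, with 3 arrays a group. In the pulse experiment 1 mM NMDA was given for 10, 30 or 60 min and washed away, and cells were harvested 24 h later, with 4 arrays a group and a separate set of 1 array a group. The crossed experiment combined 60 min of 1 mM NMDA with 18 h of 10 uM nicotine, an agonist of nicotinic acetylcholine receptors, in 4 groups (control, NMDA, nicotine, both) of 3 arrays. The washed-out experiment had the same 4 kinds of group with 30 min of NMDA and 18 h of 10 uM nicotine, harvest 24 h after washing, and 5 arrays a group. Its samples were hybridized in a first run and again in a repeat run, which the labels connect with an oven failure. In 3 smaller runs, each of 3 treated arrays against 3 controls, neurons received 10 uM nicotine for 15 min (collected 45 min after fresh medium), 2 uM 4R, a non-competitive antagonist of nicotinic receptors, for 18 h, or the same 4R exposure and then 24 h of washout. In the pulse, crossed and 4R runs the labels give arrays of different groups the same date. The labels do not say which arrays came from separate cultures, so the p-values measure the spread between these arrays, which may be technical. Arrays were compared unpaired unless a replicate block is named. In such bulk samples, fewer cells that hold a transcript and less of it per cell cannot be told apart.

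Some arrays stood apart, with a median correlation to the other arrays of their run more than 3 scaled median absolute deviations below the run's median. These were 3 continuous arrays (10 min replicates 2 and 3, and 360 min replicate 3), 2 pulse arrays (10 min replicate 3 and 60 min replicate 4), 2 crossed arrays (replicate 2 of the control and of NMDA), 1 control of the 15 min nicotine run, replicate 5 of all 4 groups in the first washed-out run, and control replicates 3 and 4 of the repeat run. The median correlations of those 2 repeat-run controls were 0.0885 and 0.543, against 0.921 for the run. The 2 hybridizations of the same sample correlated at 0.938 to 0.975 for 18 samples, and at 0.193 and 0.587 for these controls. Most results that rest on arrays that stand apart are given with and without them. Changes of the crossed and 15 min nicotine runs are given with all arrays unless stated. Neuronal markers were present on every array: the summed intensity of the 11 neuronal markers on the array (Map2, Mapt, Nefl, Nefm, Nefh, Eno2, Syp, Snap25, Gap43, Syn1 and Dlg4) was 181333 to 206910 in the 5 first-run controls. Astrocyte transcripts were present as well, with a sum over 6 markers of 31216.5 to 40771.5 in the same arrays. Sums were much lower on some arrays of groups that hold arrays standing apart. The repeat-run controls had a lowest neuronal sum of 56261.7 and a lowest astrocyte sum of 8913.02, and the 10 min pulse a lowest neuronal sum of 57241.1.

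Promoter sequences are shown for Pak1, Camk2b and Mapk8ip2, on which results below turn, and for Gnao1, which with Pak1 holds a full response element. They are shown because several of these kinases act on the transcription factor CREB, which binds the cyclic AMP response element (CRE) TGACGTCA. RefSeq promoters of the rat assembly GRCr8, from 250 bases before to 50 after the start given there, were available for 32 of the 38 genes. Capitals mark matches on either strand to the CRE, to its core TGACG (which lies within every full CRE), to the AP-1 element TGANTCA and to the EGR element GCGNGGGCG. The first pair carries a full CRE, the third promoter carries EGR elements only and the fourth holds no match.
Pak1, chr1:161522200-161522499, plus strand: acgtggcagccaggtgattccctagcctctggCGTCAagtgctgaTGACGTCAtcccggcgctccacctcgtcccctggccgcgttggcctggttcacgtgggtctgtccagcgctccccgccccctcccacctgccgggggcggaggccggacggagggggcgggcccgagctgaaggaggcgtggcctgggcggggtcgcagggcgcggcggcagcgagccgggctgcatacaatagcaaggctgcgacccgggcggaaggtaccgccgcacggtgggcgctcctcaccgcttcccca
Gnao1, chr19:11198388-11198687, minus strand: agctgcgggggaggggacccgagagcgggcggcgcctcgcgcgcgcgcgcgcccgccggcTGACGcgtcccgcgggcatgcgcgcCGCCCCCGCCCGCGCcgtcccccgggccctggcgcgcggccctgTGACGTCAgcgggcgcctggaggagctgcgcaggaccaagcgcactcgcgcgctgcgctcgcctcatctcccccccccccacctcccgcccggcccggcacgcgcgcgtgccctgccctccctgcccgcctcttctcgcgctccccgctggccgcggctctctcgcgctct
Camk2b, chr14:85147895-85148194, minus strand: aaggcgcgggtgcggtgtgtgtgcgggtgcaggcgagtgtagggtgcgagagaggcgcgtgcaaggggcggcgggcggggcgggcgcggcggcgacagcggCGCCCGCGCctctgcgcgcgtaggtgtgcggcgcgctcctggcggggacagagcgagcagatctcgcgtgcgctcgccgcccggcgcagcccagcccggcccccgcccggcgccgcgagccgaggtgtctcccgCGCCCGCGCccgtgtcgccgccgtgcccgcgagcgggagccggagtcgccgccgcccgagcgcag
Mapk8ip2, chr7:122406100-122406399, plus strand: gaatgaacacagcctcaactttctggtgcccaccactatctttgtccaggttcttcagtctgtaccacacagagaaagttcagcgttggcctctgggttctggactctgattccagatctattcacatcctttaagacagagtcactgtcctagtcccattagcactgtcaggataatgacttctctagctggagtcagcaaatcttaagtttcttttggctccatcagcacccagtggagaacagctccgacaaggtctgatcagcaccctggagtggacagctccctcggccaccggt
A full CRE was found in 2 of the 32 promoters (6.25%), those of Pak1 and Gnao1, against 1.83% of 33469 RefSeq promoters of the same length. The core TGACG stood in 13 of 32 (40.6%) against 21.2% of all, the EGR element in 8 of 32 (25%) against 4.98%, and the AP-1 element in 1 of 32 (3.12%, Gnb2) against 7.33%. The member promoters had a median GC content of 70.0%, against 51.7% over all promoters. A match is a description of the letters and not of binding.

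With all arrays, no gene of these families passed the test in any of the 21 comparisons (limma, Benjamini-Hochberg adjusted p under 0.05 over all probe sets tested in the run). Between 29 and 34 of the 38 genes were tested, the others lying below the 30th percentile of the run's means. Camk2a, the alpha subunit of CaM kinase II, and Ppp1r3b and Ptprv were below it in all 21 comparisons. Camk2a was tested in the first washed-out run alone, with a change of 0.04 (SE 0.28, adjusted p = 0.923) after NMDA. Over all comparisons the genes had 29 unadjusted p-values under 0.05. Of these, 18 came from the washed-out NMDA and nicotine comparisons and their difference in the repeat run, whose control group holds the 2 arrays with the lowest correlations.

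**Figure D1:**
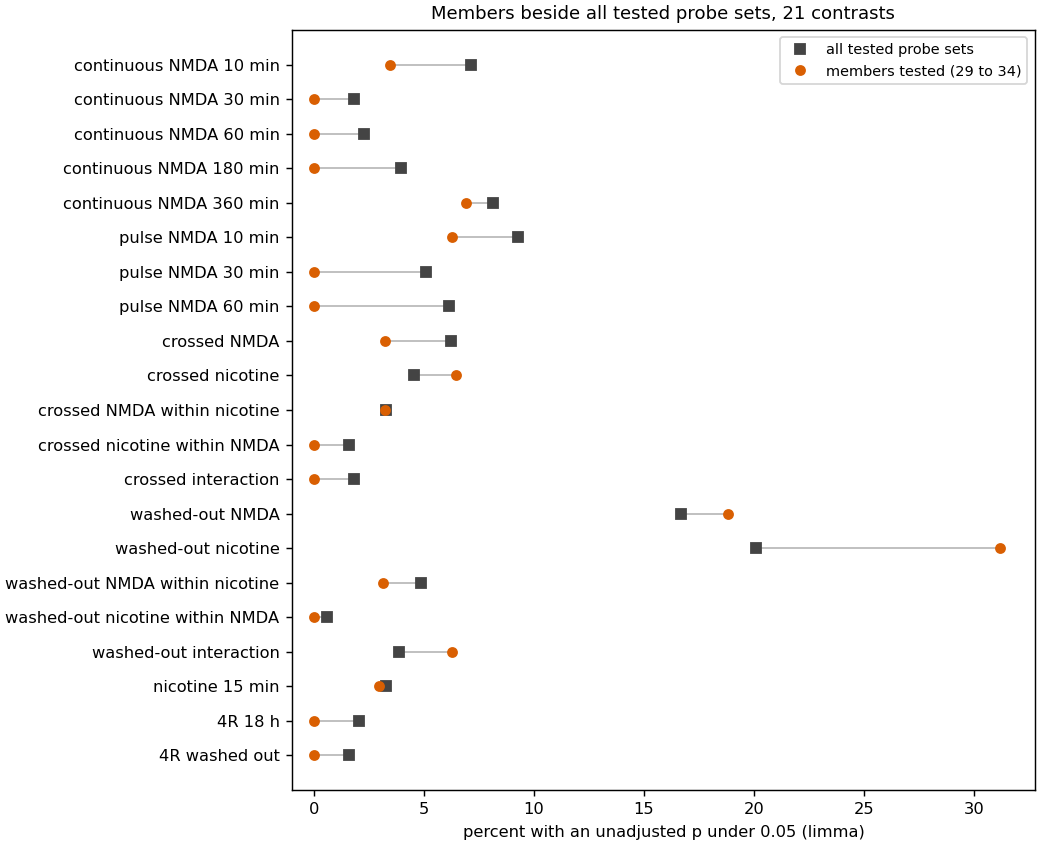
Percent with an unadjusted limma p under 0.05 (x axis) in each of the 21 comparisons (y axis), for the signalling genes tested (orange circles, 29 to 34 genes) and for all probe sets tested (grey squares). The signalling genes lie above the background in 4 of the 21 comparisons, and their highest share is that of the washed-out nicotine comparison in the repeat run, at 31.2% against 20.1%.

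The clearest differences were seen 24 h after a 30 min NMDA exposure in the washed-out experiment. There the JIP2 scaffold Mapk8ip2 and the MAP kinase kinase Map2k2 fell in the first run, and Map2k2 and the beta subunit of CaM kinase II, Camk2b, fell in the repeat run once its control replicates 3 and 4 were left out. In the first run 3 of 33 genes passed (Mapk8ip2, Map2k2 and Prkar2a), beside 14.0% of all probe sets, so the share of the signalling genes was below the background. Without the 2 controls, 3 of 32 passed in the repeat run (Map2k2, Camk2b and Grk3), beside 1.81% of all probe sets. The 2 runs measured the same samples and are not independent. At an unadjusted p under 0.05 the counts were 10 of 33 beside 27.6% in the first run, and 6 of 32 beside 19.8% in the repeat run without the 2 controls. The genes had a median log2 change of -0.04 in both fits, against 0.16 and 0.11 over all probe sets.

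Mapk8ip2 (chromosome 7, 122406350 to 122416602 in GRCr8) encodes JIP2, a scaffold that holds the kinases of the JNK and p38 pathways together. Its intensities in the first run were 17024, 19393, 15206, 17055 and 19125 in the controls and 12498, 12495, 10000, 12718 and 13815 after NMDA. Every NMDA array lay below every control. In the repeat run controls 1, 2 and 5 read 17725, 17612 and 18962, and the 5 NMDA arrays 13120, 12513, 12484, 13139 and 14684. Control replicates 3 and 4 read 1400 and 10182 there. Mapk8ip2 fell by 0.51 on the log2 scale in the first run (SE 0.09, n = 5 and 5, limma adjusted p = 0.00249), and the call held with any 1 of the 10 arrays left out (highest adjusted p 0.00835). The change in the repeat run was -0.46 (SE 0.12, adjusted p = 0.0505) without the 2 controls and 0.44 (SE 0.49, adjusted p = 0.639) with them, so those 2 arrays set its direction. With nicotine before NMDA the first-run arrays read 13005, 13499, 13699, 12730 and 13860, against 15120, 15667, 15498, 15566 and 16642 with nicotine alone. That difference was -0.23 (SE 0.09, adjusted p = 0.176) and did not pass. The difference between the NMDA changes without and with nicotine was 0.28 (95% interval 0.03 to 0.53, adjusted p = 0.463) in the first run and did not pass either.

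Map2k2 encodes MEK2, which phosphorylates the ERK kinases. Its brightest probe set shares its sequence entry with a probe set annotated to Eef2, so the gene it reports is unsure. First-run intensities of that probe set were 11775, 15821, 13359, 15411 and 15234 in the controls and 11663, 9298, 9046, 11339 and 12133 after NMDA, and the groups overlapped at 1 control and 1 NMDA array. In the repeat run controls 1, 2 and 5 read 21361, 18770 and 18657, above the NMDA arrays at 7892, 8920, 11614, 12674 and 14826. Map2k2 fell by 0.42 on the log2 scale in the first run (SE 0.12, adjusted p = 0.0264) and by 0.84 (SE 0.18, adjusted p = 0.0222) in the repeat run without controls 3 and 4, against 0.28 (adjusted p = 0.787) with them. Its other 2 probe sets changed by -0.41 and -0.43 in the first run and by -0.64 and -0.54 in the repeat run without the 2 controls. The first-run call was lost on leaving out any 1 of control replicates 2, 4 and 5 or NMDA replicates 2 and 3 (highest adjusted p 0.0763), and the repeat-run call on leaving out control replicate 1 or NMDA replicate 2 (highest 0.0734).

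Camk2b (chromosome 14, 85059166 to 85148121) encodes the beta subunit of CaM kinase II, the abundant calcium-dependent kinase of synapses. In the repeat run its controls 1, 2 and 5 read 30371, 24793 and 27218 and its NMDA arrays 18806, 19970, 18687, 21097 and 21659, without overlap. The change was -0.45 (SE 0.10, adjusted p = 0.0247) without controls 3 and 4, and 0.09 (adjusted p = 0.912) with them. Within nicotine it was also lower with NMDA, at 17810, 17223, 19353, 18484 and 18914 against 23203, 25174, 20739, 22925 and 26298, and fell by 0.36 (SE 0.09, adjusted p = 0.0323). That comparison holds none of the arrays that stand apart, but they set the spread of the fit: with them in the run, the same change had an SE of 0.41 and an adjusted p of 1. First-run intensities were 21379 to 24263 in the controls and 17268 to 21644 after NMDA, which overlapped, with a change of -0.20 (SE 0.09, adjusted p = 0.144). The repeat-run call was lost on leaving out any 1 of control replicates 1 and 5 or NMDA replicates 1, 2 and 3 (highest adjusted p 0.0752). Within nicotine it was lost without any 1 of replicates 1, 2 and 5 of nicotine alone or replicates 1 to 4 of both agents (highest 0.0993). The other Camk2b probe set changed by 0.00 in the first run and 0.10 in the repeat run without the 2 controls, so the probe sets disagree. Within nicotine, 0 of 33 genes passed in the first run, beside 2.04% of all probe sets, and 1 of 32 (Camk2b) in the repeat run without the 2 controls, beside 2.83%. Unadjusted counts were 6 of 33 beside 15.6%, and 5 of 32 beside 14.9%.

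**Figure D2:**
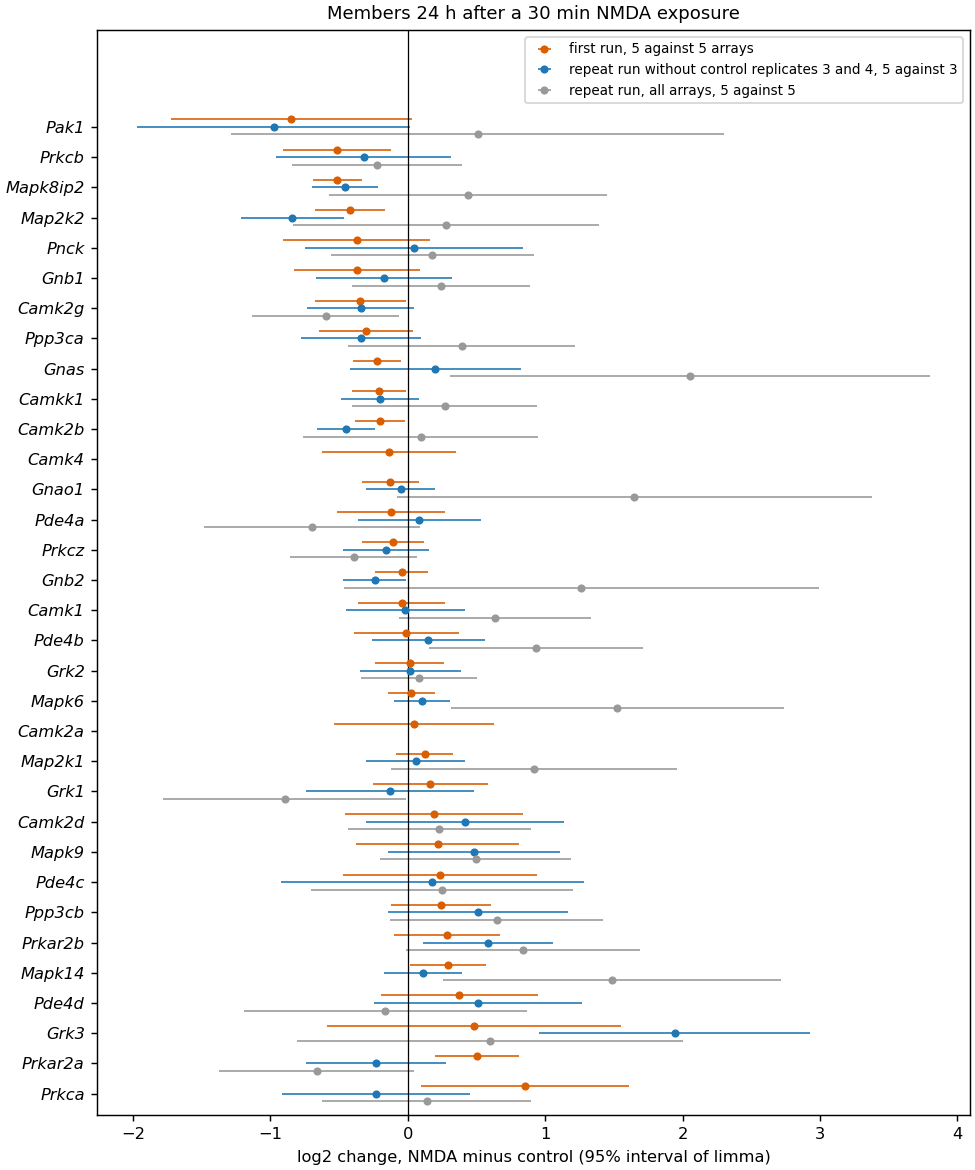
Log2 change of each signalling gene, NMDA minus control, in the washed-out experiment (x axis), with the 95% limma interval, for the first run (orange), the repeat run without control replicates 3 and 4 (blue) and the repeat run with all arrays (grey). Mapk8ip2 lies at -0.51 and -0.46 in the first 2 fits and at 0.44 in the last, and Prkar2a and Prkca have opposite signs in the first run and the repeat run without the 2 controls.

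Pak1, Prkcb and Ppp3ca were lower after NMDA in the first run, and passed there when replicate 5, which stands apart in all 4 groups, was left out. The fits of the first run without replicate 5 were not planned in advance. The p21-activated kinase Pak1, an effector of Rac and Cdc42 in the actin cytoskeleton, read 11704, 12770, 10880, 13663 and 25694 in the controls and 5398, 5496, 4942, 10466 and 19354 after NMDA. Replicate 5 was the highest array in each of the 4 groups, at 21320 with nicotine and 17919 with both. The change was -0.85 (SE 0.42, adjusted p = 0.193) with all arrays, and Pak1 fell by 0.96 (SE 0.29, adjusted p = 0.0374) without replicate 5. Its other probe set changed by -0.53 in the first run, and the repeat run without controls 3 and 4 gave -0.98 (SE 0.47, adjusted p = 0.267).

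Prkcb encodes protein kinase C beta, a calcium- and lipid-activated kinase. It has 3 probe sets, of which only the brightest is given for the washed-out experiment. It read 6848, 7762, 6546, 5613 and 9262 in the first-run controls and 4997, 4038, 4594, 4135 and 7812 after NMDA. Replicate 5 was again the highest array of both groups. The change was -0.51 (SE 0.19, adjusted p = 0.0736), and Prkcb fell by 0.58 (SE 0.12, adjusted p = 0.00469) without replicate 5. Leaving out the NMDA array of replicate 5 alone brought the adjusted p to 0.0177. In the repeat run without controls 3 and 4 the change was -0.32 (SE 0.30, adjusted p = 0.617).

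Ppp3ca encodes the alpha catalytic subunit of calcineurin, the phosphatase switched on by calcium and calmodulin. First-run intensities were 7929, 8210, 6353, 6970 and 8471 in the controls and 4914, 5822, 5434, 5692 and 9517 after NMDA. Without replicate 5 the NMDA arrays all lay below the controls, and Ppp3ca fell by 0.42 (SE 0.11, adjusted p = 0.0213), against -0.30 (SE 0.16, adjusted p = 0.231) with it. In the repeat run without controls 3 and 4 the change was -0.34 (SE 0.21, adjusted p = 0.416). Without replicate 5, 5 of 33 genes passed in the first run (Mapk8ip2, Map2k2, Pak1, Prkcb and Ppp3ca). That share of 15.2% was close to the 13.7% of all probe sets that passed.

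**Figure D3:**
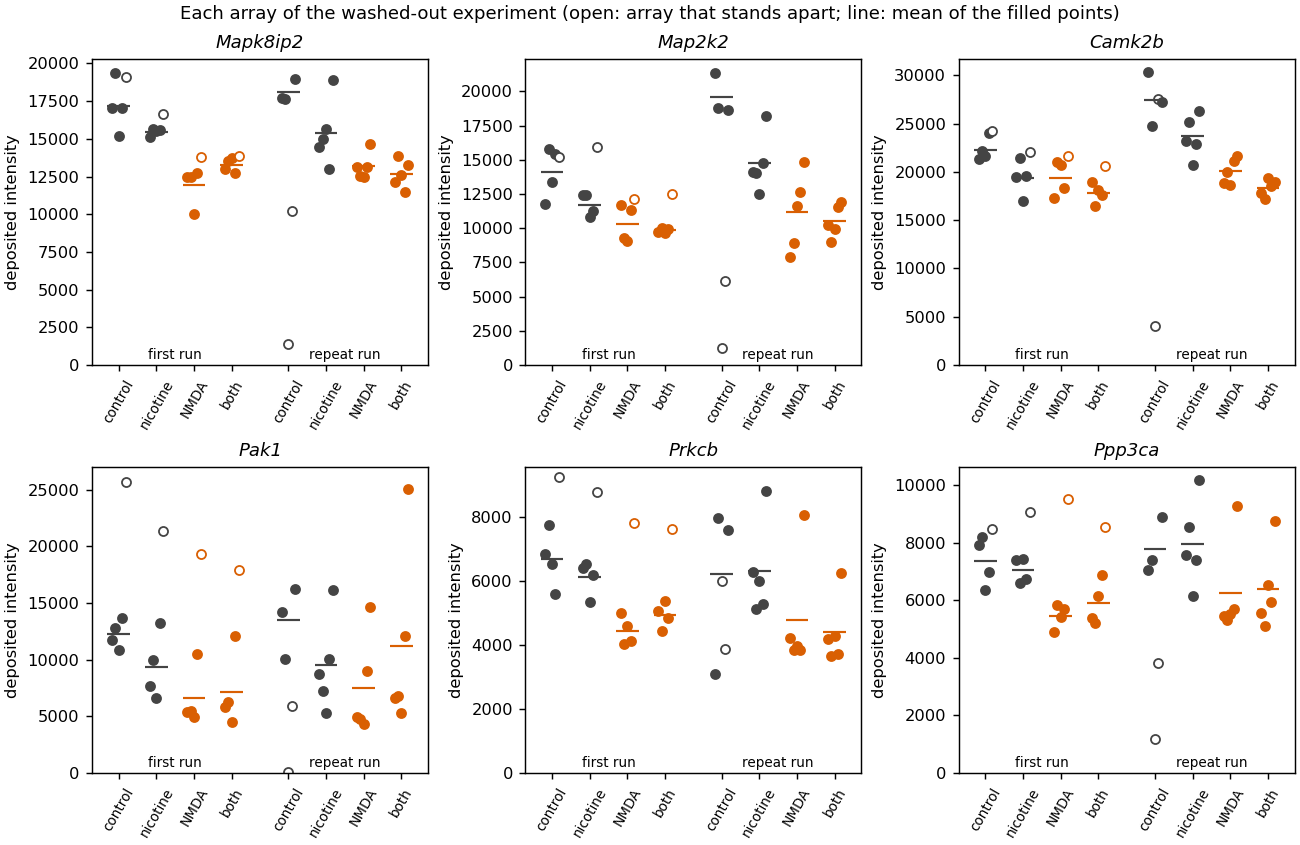
Deposited intensity (y axis, from 0) of Mapk8ip2, Map2k2, Camk2b, Pak1, Prkcb and Ppp3ca on each array of the washed-out experiment, by group and run (x axis), with NMDA groups in orange, open points for arrays that stand apart and lines at the mean of the filled points. For Mapk8ip2 the first-run controls span 15206 to 19393 and the NMDA arrays 10000 to 13815, and the open control points of the repeat run lie at 1400 and 10182.

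Other calls of the washed-out experiment differed between the 2 hybridizations of the same samples. Prkar2a, a regulatory subunit that holds protein kinase A inactive, read 899, 1365, 1111, 1097 and 1186 in the first-run controls and 1253, 1787, 1618, 1760 and 1707 after NMDA. It rose by 0.50 (SE 0.15, adjusted p = 0.0269) in that run. The repeat run had controls 1, 2 and 5 at 1435, 2034 and 2120 and NMDA arrays at 1261, 1697, 1252, 1870 and 1808, a change of -0.23 (SE 0.24, adjusted p = 0.655). Its call in the first run was lost on leaving out any 1 of 5 arrays (control replicates 1 and 4, NMDA replicates 2, 3 and 4, highest adjusted p 0.0758), and without replicate 5 of all groups it was 0.0607. For nicotine the first run gave 0.53 (SE 0.15, adjusted p = 0.0875) and the repeat run without the 2 controls -0.73 (SE 0.24, adjusted p = 0.573).

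Grk3, a kinase that desensitizes G protein-coupled receptors, was near the filter. Its repeat-run intensities were 97, 113 and 106 in controls 1, 2 and 5 and 611, 450, 402, 754 and 754 after NMDA, a rise of 1.94 (SE 0.47, adjusted p = 0.0409) on the log2 scale after an offset of 60.85, which understates changes at low values. First-run values were 555, 128, 92, 166 and 294 in the controls and 578, 557, 122, 503 and 124 after NMDA, which overlapped, with a change of 0.49 (SE 0.51, adjusted p = 0.559). The repeat-run call was lost on leaving out any 1 of the 8 arrays other than NMDA replicate 5 (highest adjusted p 0.082). Prkca, the alpha isoform of protein kinase C, gave 0.86 (SE 0.36, adjusted p = 0.132) in the first run and -0.23 (SE 0.32, adjusted p = 0.728) in the repeat run without the 2 controls. Within nicotine Prkca was higher with NMDA in the repeat run, at 419, 333, 339, 417 and 473 against 305, 63, 298, 182 and 158, a change of 0.90 (SE 0.37, adjusted p = 0.843) that did not pass. Pnck, a calmodulin-dependent kinase, has 3 probe sets, of which only the brightest is given here. It read 1606, 1466, 1777, 1108 and 1142 in the first-run controls. In that run Pnck read 1495, 1524, 1301, 1031 and 956 with nicotine and NMDA and 2387, 2137, 2981, 1660 and 1126 with nicotine alone. That change was -0.63 (SE 0.26, adjusted p = 0.215) with all arrays, and Pnck fell by 0.74 (SE 0.19, adjusted p = 0.038) without replicate 5, the only 1 of 33 genes to pass there, beside 4.52% of all probe sets. The repeat run gave -0.41 (SE 0.36, adjusted p = 1).

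With all arrays of the repeat run, 6 of 32 genes had an unadjusted p under 0.05 for NMDA beside 16.7% of all probe sets, and 10 of 32 for nicotine beside 20.1%. None passed after adjustment, beside 0.226% and 0% of all probe sets. The genes with such a p and all 5 treated arrays on 1 side of the control mean were Gnas, Mapk6, Mapk14 and Pde4b (higher) and Grk1 and Camk2g (lower) for NMDA. For nicotine they were Gnas, Gnao1, Mapk14, Mapk6 and Pde4b (higher) and Grk1, Prkar2a and Pde4a (lower). Without control replicates 3 and 4 the changes lay between -0.34 (Camk2g) and 0.20 (Gnas) for NMDA. For nicotine they lay between -0.11 (Mapk6) and 0.37 (Gnas), except Grk1 at -0.85 (SE 0.29, adjusted p = 0.573) and Prkar2a at -0.73. Grk1, a receptor kinase of low intensity here, read 479, 624.7 and 587 in controls 1, 2 and 5 and 420, 385, 310, 312 and 103 with nicotine, without overlap, and its first-run change was 0.26. Gnas, the stimulatory G protein alpha subunit, read 12532, 49384, 358, 3793 and 50086 in the repeat-run controls and 33087 to 39050 after NMDA, a change of 2.05 (SE 0.84, adjusted p = 0.25), against -0.22 in the first run. Gnao1, the alpha subunit of the abundant neuronal protein Go, read 23869, 33026, 239, 7816 and 31623 in those controls and 28382 to 35503 with nicotine, a change of 1.75 (SE 0.83, adjusted p = 0.243), against -0.12 in the first run. The stress kinase Mapk14 changed by 1.49 (NMDA) and 1.46 (nicotine), and Mapk6 by 1.53 and 1.31, with adjusted p between 0.228 and 0.248. The median change of the genes for nicotine was 0.47 with all arrays, -0.01 in the first run and 0.02 in the repeat run without the 2 controls. Nicotine called 0 genes in the first run beside 0.339% of all probe sets, and 0 without the 2 controls beside 0%.

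For the other washed-out comparisons of the repeat run, 1 of 32 genes had an unadjusted p under 0.05 for NMDA within nicotine beside 4.86%, 0 for nicotine within NMDA beside 0.566%, and 2 for the difference between the NMDA changes without and with nicotine beside 3.85%. None passed after adjustment, beside 0% of all probe sets in each.

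In the pulse experiment, also harvested 24 h after NMDA, most of the genes were lower than in the controls without passing the test. Of 32 genes tested, 20, 23 and 21 were lower after 10, 30 and 60 min, with medians of -0.20, -0.13 and -0.26 against -0.04, -0.06 and -0.11 over all probe sets, of which 52.4%, 56.0% and 58.3% were lower. Without 10 min replicate 3 and 60 min replicate 4, which stand apart, the medians were -0.31, -0.13 and -0.14, against -0.17, -0.06 and -0.15 over all probe sets. None passed, beside 2.26%, 1.36% and 1.58% of all probe sets. Unadjusted counts were 2, 0 and 0 genes beside 9.28%, 5.09% and 6.11%, and without the 2 arrays that stand apart 6, 4 and 3 genes beside 13.5%, 9.95% and 11.1%. The 3 comparisons share their control arrays. The MAP kinase cascade was lower in 6, 7 and 7 of its 7 genes, from -1.13 (Mapk8ip2, 10 min) to 0.02 (Mapk6, 10 min), and without the 2 arrays in 5, 7 and 5.

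Camkk1 (chromosome 10, 58135872 to 58159023) encodes CaM kinase kinase 1, which activates the kinases CaMKI and CaMKIV. Its controls read 2188, 3573, 2144 and 2854. After 10 min it read 1054, 1463 and 1890, with 4761 on replicate 3, which stands apart. After 30 min it read 1520, 1516, 1722 and 1639, and after 60 min 1227, 1813 and 2022, with 3334 on replicate 4, which stands apart. Repeat arrays from a separate run read 1902 for that last sample, 2190 for 10 min replicate 4 and 1906 for 30 min replicate 3. The 2190 lay just above the controls at 2188 and 2144. Apart from the 2 arrays, all 10 pulse arrays of the main run lay below all 4 controls. The separate set read 3061 in its control and 2072, 1929 and 1705 after 10, 30 and 60 min. With all arrays the changes were -0.43, -0.70 and -0.41 (SE 0.41 each, adjusted p 0.86 to 0.999). Without the 2 arrays they were -0.85, -0.70 and -0.65 (SE 0.27, 0.25 and 0.27, adjusted p = 0.127, 0.295 and 0.378) and did not pass. The labels of this run give samples of different groups the same date. With that shared date as a replicate block and the 2 arrays left out, Camkk1 fell by 0.85 at 10 min (SE 0.23, adjusted p = 0.0419), the only 1 of 32 genes to pass, beside 5.77% of all probe sets.

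Ppp3ca and Pnck were also lower 24 h after each pulse without passing. Ppp3ca controls read 5653, 7384, 8655 and 7344. Its pulse arrays read 5618, 4830, 6598 (which stands apart) and 4710 at 10 min, 5012, 4800, 6440 and 5150 at 30 min, and 4966, 3926, 5942 and 9459 (which stands apart) at 60 min. The repeat array of that 60 min sample read 5753. Ppp3ca read 7120 in the control of the separate set and 4404, 4464 and 4271 after the pulses. Its changes without the 2 arrays were -0.51, -0.43 and -0.55 (SE 0.20 to 0.22, adjusted p 0.302 to 0.49). The beta catalytic subunit Ppp3cb had changes of -1.13, -0.58 and -0.99 with all arrays, which became -0.34, -0.58 and -0.17 (adjusted p 0.409 to 0.85) without the 2 arrays, on which it read 51.5 and 55.8. Pnck read 818, 3347, 1356 and 3188 in the controls, a wide spread, and 718 to 1706 on the 10 pulse arrays that do not stand apart. Its change without the 2 arrays was -0.97, -0.87 and -1.01 (SE 0.40 to 0.43, adjusted p 0.321 to 0.477), and it was the lowest of the 32 genes in the separate set, at -1.31 (10 min) to -1.56 (60 min).

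Mapk8ip2 read 14407, 20643, 16398 and 17279 in the pulse controls and 11128, 13577, 2258 (which stands apart) and 10508 after 10 min. All of these 10 min arrays lay below the controls, and the change was -1.13 (SE 0.52, adjusted p = 0.527), or -0.54 (SE 0.27, adjusted p = 0.395) without the array that stands apart. The 30 min arrays read 9972, 12034, 11675 and 18891, and the 60 min arrays 8154, 16852, 16644 and 3788, the last standing apart, with 16237 on its repeat array. The separate set read 21922 in its control and 13696, 14227 and 15904 after the pulses. Pde4b, a phosphodiesterase that degrades cyclic AMP, was higher after 10 min, at 829.4, 1580, 1654 (which stands apart) and 1368 against 774, 616, 1084 and 826. The groups overlapped, and the change was 0.66 (SE 0.31, adjusted p = 0.527). In the separate set, with 1 array a group and no replicate check, 17, 17 and 19 of 32 genes were lower, with medians of -0.10, -0.06 and -0.11. Prkcb and Pak1, lower in the washed-out experiment, read 5649 and 6151 in the control of that set and 6105 to 6955 and 6780 to 9904 after the pulses, higher each time. In the replicated pulse run they had negative changes, also without the 2 arrays that stand apart, of -0.38, -0.41 and -0.36 for Prkcb and -0.93, -0.72 and -0.28 for Pak1, none of which passed (adjusted p 0.288 to 0.823).

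**Figure D4:**
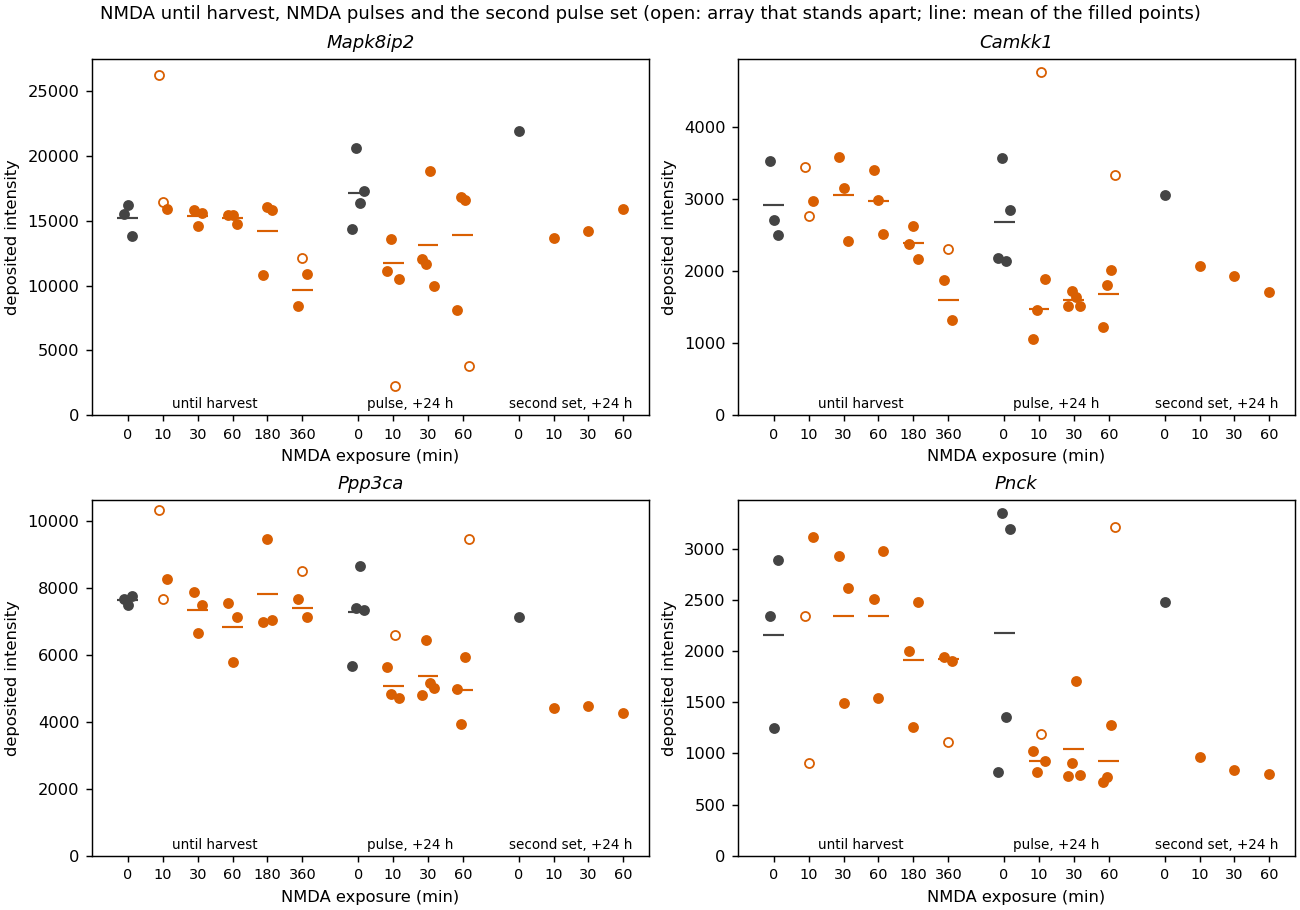
Deposited intensity (y axis, from 0) of Mapk8ip2, Camkk1, Ppp3ca and Pnck on each array by minutes of NMDA (x axis), for NMDA until harvest, for pulses with harvest 24 h later and for the separate pulse set, with controls in grey, open points for arrays that stand apart and lines at the mean of the filled points. Camkk1 stays near its controls up to 60 min of continuous NMDA and lies at 1322 to 2315 at 360 min and at 1054 to 2022 on the filled pulse points.

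With NMDA present until harvest, no gene passed the test at any time with all arrays, and the calmodulin-dependent kinase kinase Camkk1 had the lowest change at 360 min. Of 29 genes tested, 12, 13, 16, 15 and 22 were lower at 10, 30, 60, 180 and 360 min, with medians of 0.08, 0.02, -0.04, -0.02 and -0.15. Over all probe sets 53.6%, 51.6%, 53.7%, 61.0% and 48.3% were lower, with medians of -0.04, -0.01, -0.02, -0.07 and 0.01. Without the 3 arrays that stand apart the median of the genes at 360 min was -0.10, beside -0.09 over all probe sets. The background was 0%, 0%, 0.679%, 0.452% and 0% of all probe sets, and the unadjusted counts were 1, 0, 0, 0 and 2 genes beside 7.13%, 1.81%, 2.26%, 3.96% and 8.14%. At 360 min all 6 MAP kinase cascade genes tested, all 6 calcium/calmodulin kinase genes tested and all 4 G protein genes were lower with all arrays, from -0.66 (Camkk1) to -0.03 (Gnao1). Without the arrays that stand apart, which include 360 min replicate 3, 5 of 6, 5 of 6 and 3 of 4 were lower, with Mapk9 at 0.07, Camk2d at 0.21 and Gnb2 at 0.01. Of the phosphodiesterases 2 of 4 were lower in either case, and Pde4c turned from 0.61 to -0.14 without those arrays.

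Camkk1 read 3534, 2706 and 2504 in these controls, 2378, 2630 and 2165 at 180 min and 1884, 2315 and 1322 at 360 min. All 360 min arrays lay below the controls, and the change was -0.66 (SE 0.25, adjusted p = 0.448). After each group's mean was subtracted, same-numbered arrays of different groups of this run correlated over 0.1 in all 45 pairs. Without the 3 arrays that stand apart it was 23 of 26 pairs (lowest r -0.10). With the replicate number as a block and the 3 arrays that stand apart left out, Camkk1 fell by 0.82 at 360 min (SE 0.17, adjusted p = 0.0205), the only 1 of 29 genes to pass, beside 2.26% of all probe sets. The 360 min group of that fit held replicates 2 and 4 only. Mapk8ip2 read 15548, 16214 and 13830 in the controls and 8406, 12162 and 10936 at 360 min, again without overlap. Its change was -0.54 (SE 0.21, adjusted p = 0.46), and -0.63 (SE 0.17, adjusted p = 0.0796) with the block and without the 3 arrays. Map2k1, which encodes MEK1, read 5212, 6152 and 4225 in the controls and 4487, 1721 and 4489 at 360 min, where the low value is the array that stands apart. Its change was -0.64 (SE 0.32, adjusted p = 0.64), and -0.19 (SE 0.26) without that array. Mapk9, which encodes JNK2, was low at 10 min, at 193, 203 and 598 against 1452, 934 and 929. The first 2 of those arrays stand apart, the change was -1.62 (SE 0.51, adjusted p = 0.386), or -0.77 (SE 0.45) without them, and the 30 min arrays were back at 874 to 1605.

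In the crossed experiment, with harvest at the end of treatment, 0 of 31 genes passed in any comparison, beside 0.905% of all probe sets for NMDA, 1.02% for NMDA within nicotine and 0% for the 2 nicotine comparisons and the difference between the NMDA changes. Unadjusted counts were 1 for NMDA beside 6.22%, 2 for nicotine beside 4.52%, 1 for NMDA within nicotine beside 3.28%, 0 for nicotine within NMDA beside 1.58% and 0 for the difference beside 1.81%. Ptprh, a receptor tyrosine phosphatase of low intensity here, read 495, 580 and 387 in the controls, 324, 205 and 263 with NMDA and 107, 247 and 174 with nicotine. The 580 and the 205 came from arrays that stand apart. Neither treated group overlapped the controls, and with all arrays the changes were -0.76 and -1.25 (SE 0.34 each, adjusted p = 0.721 each). Prkcb read 7777, 8155 (which stands apart) and 8489 in the controls and 5994, 6036 and 7207 with nicotine. Its change with all arrays was -0.35 (SE 0.14, adjusted p = 0.721), which turned to 0.05 when its 3 probe sets were averaged. Prkar2a was higher with both agents than with nicotine alone, at 2029, 2004 and 1935 against 1404, 1726 and 1169, a change of 0.47 (SE 0.19, adjusted p = 0.996). Mapk8ip2 and Camkk1, lower at 360 min of continuous NMDA, overlapped their controls here: Camkk1 read 3225, 3115 and 3630 after 60 min of NMDA against 3221, 4195 and 3473. Replicate 2 of this run's control, which stands apart, read 40318 for Gnb1, a G protein beta subunit, against 8713 and 7383 on the other controls, and the Gnb1 change with NMDA was -0.61 (SE 0.53) with all arrays and -0.17 (SE 0.27) without replicate 2 of both groups.

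Nicotine for 15 min changed no gene by the test, with 0 of 34 genes beside 0% of all probe sets, and 1 of 34 at an unadjusted p under 0.05 beside 3.28%. That gene was Gnao1, at 33378, 33708 and 33076 (which stands apart) in the controls and 25821, 31572 and 29738 with nicotine, without overlap. The change with all arrays was -0.21 (SE 0.08, adjusted p = 1). Changes of the 34 genes ran from -0.37 (Ppp3cb) to 0.72 (Pde4c), with a median of -0.01.

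The antagonist 4R for 18 h gave 0 of 33 genes past the threshold, beside 0% of all probe sets, and 0 at an unadjusted p under 0.05 beside 2.04%. After 24 h without 4R the counts were 0 of 32 beside 0%, and 0 beside 1.58%. After 18 h of 4R, 13 of the 33 genes were lower and 20 higher, beside 50.3% of all probe sets lower. All 4 PDE4 genes were lower after 18 h of 4R, from -0.72 (Pde4c) to -0.03 (Pde4a), and Pde4c was the lowest gene after washing as well, at -1.26. Pde4c intensities overlapped in both runs, at 254, 1060 and 766 with 4R against 1693, 923 and 698, and at 1861, 319 and 146 after washing against 983, 2317 and 907. Camk2b read 26266, 21116 and 24767 with 4R against 23533, 17562 and 20241, a change of 0.24 (SE 0.15, arrays unpaired). The groups overlapped, but each 4R array read above the control of the same number. With the replicate block no gene passed either.

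**Figure D5:**
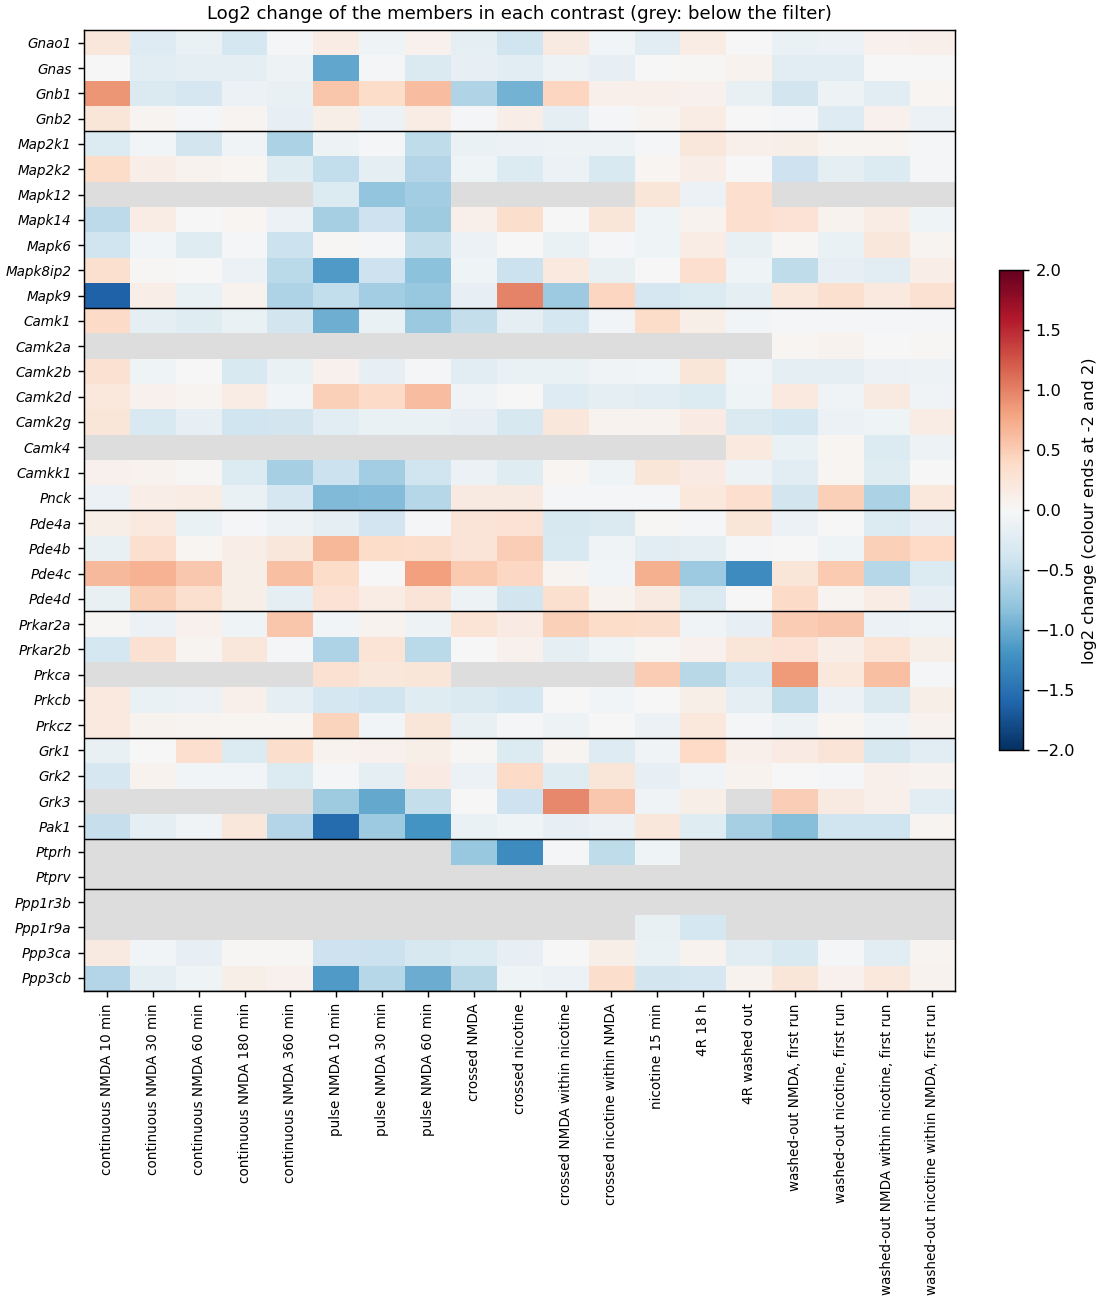
Log2 change of the 38 genes (rows, grouped by family) in each comparison with all arrays (columns), with the first run shown for the washed-out experiment, where blue is lower, red is higher, and grey marks genes below the filter. The MAP kinase cascade is mostly blue in the 3 pulse columns, and the dark cells of Mapk9 at 10 min of continuous NMDA (-1.62) and of Pak1 after the 10 min pulse (-1.53) become -0.77 and -0.93 without the arrays that stand apart.

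Baseline intensities of the same probe set differed between runs, and the cause was not tested. Over the 8 replicated runs, without the arrays that stand apart, the highest control mean of Ppp3ca was 1.23 times its lowest, that of Camkk1 1.36 times and that of Mapk8ip2 1.46 times. Pak1 control means ran from 3924 in the 15 min nicotine run to 13504 in the repeat washed-out run, a ratio of 3.44. Gnb1 ran from 6203 to 16274, a ratio of 2.62, and Pnck from 1331 to 3874, a ratio of 2.91. The ratio reached 4.72 for Grk3 and 6.52 for Ppp1r3b, a glycogen-targeting phosphatase subunit whose intensities were near the offset.

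Of 74 other genes of these pathways on a fixed list, 20 were named on the array, and 17 to 19 of them were tested in each run. Crem, a transcription factor of the CREB family that the cyclic AMP pathway induces, was the only 1 of 18 to pass in the pulse experiment. Over all probe sets 2.26%, 1.36% and 1.58% passed after 10, 30 and 60 min. Crem rose by 2.42 (SE 0.45, adjusted p = 0.00449), 2.08 (adjusted p = 0.0208) and 2.12 (adjusted p = 0.0138) on the log2 scale at those times. In the first washed-out run 3 of 19 passed for NMDA, beside 14.0% of all probe sets. Crem rose by 1.80 (SE 0.33, adjusted p = 0.00249) and Itpkb, an inositol trisphosphate kinase, by 0.58 (SE 0.16, adjusted p = 0.0211), while Itpka, the related neuronal enzyme, fell by 1.51 (SE 0.34, adjusted p = 0.0078). None of the 20 passed with all arrays in the continuous, crossed, repeat washed-out, nicotine or 4R comparisons, and Crem passed at 360 min of continuous NMDA without the 3 arrays that stand apart, at 2.79 (SE 0.58, adjusted p = 0.0164).

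Markers of cell types were measured beside these changes. Of the lists, 11 of 15 neuronal, 6 of 9 astrocyte, 5 of 8 oligodendrocyte, 1 of 9 microglial and 0 of 9 endothelial genes were on the array, and none was at 0 on any array. In the first washed-out run the neuronal sum was 174026 to 191016 (median 185399) after NMDA, overlapping the controls (median 191667), and the astrocyte sum was 25626.4 to 42617.2 (median 30831.5, against 35187.3), overlapping as well. The median change of the 11 neuronal markers was -0.08. Of these Nefl, a neurofilament subunit, rose by 0.52 (SE 0.16, adjusted p = 0.0351), and Mag, a myelin marker, rose by 0.71 (SE 0.13, adjusted p = 0.00249). They were 1 of 11 neuronal and 1 of 4 oligodendrocyte markers tested, beside 14.0% of all probe sets passing in that run. In the repeat run without controls 3 and 4, Eno2, the neuronal enolase, fell by 0.46 (SE 0.11, adjusted p = 0.0409) beside the falls of Map2k2 and Camk2b. Eno2 was the only 1 of 11 neuronal markers to pass there, beside 1.81% of all probe sets. After the pulses, without the 2 arrays, Nefl rose by 1.19, 1.04 and 1.01 (adjusted p 0.0134 to 0.0455) and no other neuronal marker passed. Most neuronal markers went the other way, with 8, 9 and 9 of 11 lower and medians of -0.17, -0.20 and -0.21. The 5 astrocyte markers tested there had medians of 0.04, 0.29 and 0.19. The part of cell number or RNA quality in the changes of the signalling genes was not tested. The 60 min pulse array of replicate 4, which read low for Mapk8ip2 and high for Camkk1 and Ppp3ca, had a GAPDH 3'/5' probe ratio of 12.3. The other pulse array, the 3 continuous and the 2 crossed arrays that stand apart had 2.18 to 3.36, and the remaining arrays that stand apart 1.35 to 1.61. Repeat-run control replicate 2, kept when controls 3 and 4 were left out, had 2.28. Controls 1 and 5 had 1.46 and 1.68, and the NMDA arrays of that run 1.30 to 1.47.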

How the data were processed

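Total RNA of primary rat cortical neurons was hybridized to Affymetrix arrays in 10 runs. Per the file, the authors deposited linear intensity values of 1322 probe sets, scaled to a common mean (2%-trimmed mean 2503.1 to 2513.4). Which array software made them: not given in the sources used here. After 59 control probe sets were left out, 1263 were used, of which 1137 had 1 annotated gene, 8 several and 118 none. All 38 symbols were the same when looked up by Entrez ID in RefSeq. Values were log2 transformed after adding the 10th percentile of the run's positive values (57.15 to 88.14). Probe sets below the 30th percentile of the run's means were left out. Each run was tested by limma 3.58.1 under R 4.3.3 over its full set of groups, with the prior variance following intensity, no block, and Benjamini-Hochberg adjustment over the 884 probe sets that remained. The fit was tested on simulated data. A fold is understated at low intensity.

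Genes were named with values where they passed the threshold, where all treated arrays lay on 1 side of the reference mean at an unadjusted p under 0.05, or where a list fixed them, and further genes were named after their values were seen. The members and lists were chosen with earlier results of these data known. Alternatives were a replicate block, other filters, offsets and normalizations, arrays left out, the first run, and all probe sets of a gene. Pairing came from shared dates in the labels of the pulse, crossed and 4R runs, and from the data in the continuous and 18 h 4R runs. For the data, each group's mean was subtracted from its arrays, and the deviations were correlated between same-numbered arrays of different groups. These deviations correlated over 0.1 in 45 of 45 continuous pairs (median r 0.40, and 23 of 26 without the arrays that stand apart). In the 18 h 4R run it was 3 of 3 pairs (median 0.49). The pulse array of 10 min replicate 3 and its repeat array agreed within 0.05 at 1262 of 1263 probe sets and were counted as 1 array. For 1 pulse array labelled 30 min, another label field gives 60 min. The number of arrays limits the precision. Promoters are from RefSeq GRCr8.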

Additional observations from a re-analysis of the deposited data

Results flagged for a closer look

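Of 144 groups of 4 or 5 arrays examined for 12 genes, 14 held an array far from the others of its group (Dixon's criterion at 95%, which chance meets in about 1 in 20 groups), and the 12 genes were chosen after their values were seen. In the washed-out runs 8 of the 14 were replicate 5. These were Pak1 in the first-run control (25694), Prkcb after NMDA in the first run (7812) and the repeat run (8077) and after both agents in the repeat run (6269), Ppp3ca after NMDA in the first run (9517) and the repeat run (9261), Map2k2 after both agents in the first run (12489) and Prkca after both agents in the first run (598). Control replicate 3 of the repeat run, which stands apart over all probe sets, was far from the other controls for Camk2b (4050), Camkk1 (510.4) and Prkar2a (7467). Prkar2a was also high on replicate 4 of the 10 min pulse (2433) and low on replicate 1 of both agents in the first run (1161). Pnck was high on replicate 4 of the 30 min pulse (1706).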

How the results depend on the processing

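The counts of 0 genes past the adjusted threshold stayed at 0 for the crossed, 15 min nicotine and 4R experiments under every alternative run, and for all experiments with any 1 array left out, other filters, offsets and normalizations. With the replicate block, leaving out all arrays that stand apart, the count was 1 for the continuous experiment and 1 for the pulses. For the washed-out experiment it was 4 without control replicates 3 and 4, 3 in the first run and 6 in the first run without replicate 5. There the replicates share only a number, and the replicate block gave 7 in the repeat run without the 2 controls (53 of the probe sets tested for NMDA) and 7 in the first run (210 of them). For NMDA it added Pak1 (-0.85, adjusted p = 0.000533) and Prkcb (adjusted p = 0.00224) in the first run, and Pak1 (-0.84, adjusted p = 0.0348) and Mapk8ip2 (-0.41, adjusted p = 0.0306) in the repeat run without the 2 controls. For NMDA within nicotine it added Pnck (adjusted p = 0.00683) and Map2k2 (adjusted p = 0.036), and for nicotine in the first run Prkar2a (adjusted p = 0.0487). Deviations of same-numbered arrays from their group means correlated over 0.1 in 24 of 30 first-run and 19 of 30 repeat-run pairs. Unadjusted p-values under 0.05 numbered 29, against 54 with the replicate block and 63 when, in addition, those arrays were left out. The block changed no other call. The median change for washed-out nicotine (0.47) was 0.96 with median centring, 0.023 and 0.048 without the 2 controls (without and with the block), -0.012 in the first run with or without the block, and 0.036 in the first run without replicate 5.

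Signs of single genes turned as follows. For washed-out NMDA, the first run (the block leaves its values as they are) and the first run without replicate 5 gave Grk1 0.17 and 0.12, Pde4b -0.0095 and -0.0068, and Gnas -0.22 and -0.23. For washed-out nicotine they gave Grk1 0.26 and 0.19, Prkar2a 0.53 and 0.49, Pde4b -0.090 and -0.022, Mapk6 -0.14 and -0.14, Gnao1 -0.12 and -0.12, Gnas -0.20 and -0.23, and Pde4a 0.026 in the latter. Without the 2 controls Mapk6 for nicotine was -0.11, and -0.12 with the block. With all probe sets of the gene averaged, Pde4b was -0.29 for NMDA and -0.61 for nicotine, and Prkcb for crossed nicotine was 0.046. With 1 array left out in turn from the repeat run without the 2 controls, Gnas for NMDA ran from -0.46 to 0.54, and only leaving out control replicate 1 made it negative (adjusted p = 0.0299). The cause of these changes was not tested. Genes near the offset (Grk3, Prkca, Ptprh) are limited by signal over background.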
